A study of Mus musculus with 8 samples.

Results

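Genes that make, or switch on, the contractile apparatus of smooth muscle were followed through a list of genomic regions bound by the chromatin remodelling ATPase BRG1 in injured mouse hearts: Acta2, Tagln, Myh11, Cnn1, Smtn, Lmod1, Mylk, Myocd, Srf and Des. They were chosen by name, as smooth muscle genes, and not by any measured value, although earlier results of these data were known. All 10 were found among 37273 annotated genes of the mouse genome. By the sample labels the hearts came from adult C57BL/6 mice, 10-12 weeks old, that received thymosin beta 4 (Tβ4) at 12 mg/kg each day for 1 week by the intraperitoneal route, or PBS as vehicle. The study's methods name the substrain C57BL/6J and give a somewhat higher age for mice with infarction. The left anterior descending coronary artery was then tied off to give a myocardial infarction (MI), Tβ4 or PBS was given again on days 0 and 2, and hearts were taken on day 4. BRG1-bound chromatin and input were sequenced in biological duplicates of each treatment, 8 libraries in all, and the list used here holds the regions of the Tβ4-primed, injured hearts. PBS-primed hearts were not analysed here, so nothing below compares the treatments.

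In smooth muscle, actin (Acta2) and myosin (Myh11) filaments slide past each other once myosin light chain kinase (Mylk) has phosphorylated the myosin, and calponin, transgelin, smoothelin, leiomodin and desmin bind, build or anchor the filaments. Many of these genes are switched on by serum response factor (SRF), which binds a short DNA element called the CArG box, and by myocardin, a coactivator that is recruited by SRF and is restricted to smooth and cardiac muscle. BRG1 is the motor of SWI/SNF complexes, which move or evict nucleosomes. In the heart, smooth muscle cells wrap the coronary vessels, and the epicardium is one source of them during development.

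The list gives only the start and end of each region, with no height, score or p-value, and it is 1 list with no replicate, so neither the strength nor the reproducibility of any region is known. It was made from whole hearts, so a region may come from any cell type of the heart, and a region present in few cells cannot be told apart from a weak one in many. Its 524614 regions cover 25.8% of the chromosomes, with a median length of 600 bp and a median gap of 1590 bp. A region near a gene is therefore the usual case: 95.1% of all genes had at least 1 region in a window made of the gene and 5 kb beyond each end, and so did 10 of 10 members. The useful question is where along each gene the regions lie, and how much they cover.

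The 10 windows held 139 regions with a median length of 600 bp, the same as that of the whole list, and lengths from 210 to 7650 bp. Regions covered a median of 24.4% of the members' windows, against 24.0% over all genes and 25.6% over the 200 genes nearest in length to each member. Density showed the same: a median of 0.230 regions per kb in the members and 0.222 in all genes. Of the 10 members, 5 lay above the median covered share of all genes. Ranked among the 200 genes nearest in length to each, 4 of 10 lay above percentile 50, and the median percentile was 35.5 (33.5 to 40.25 over the alternatives run). The members' median was thus close to that of all genes. With 10 genes, 4 above the middle for their length is near an even split. Among themselves the members ranged from 11.6% (Cnn1) to 43.2% (Acta2).

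**Figure D1:**
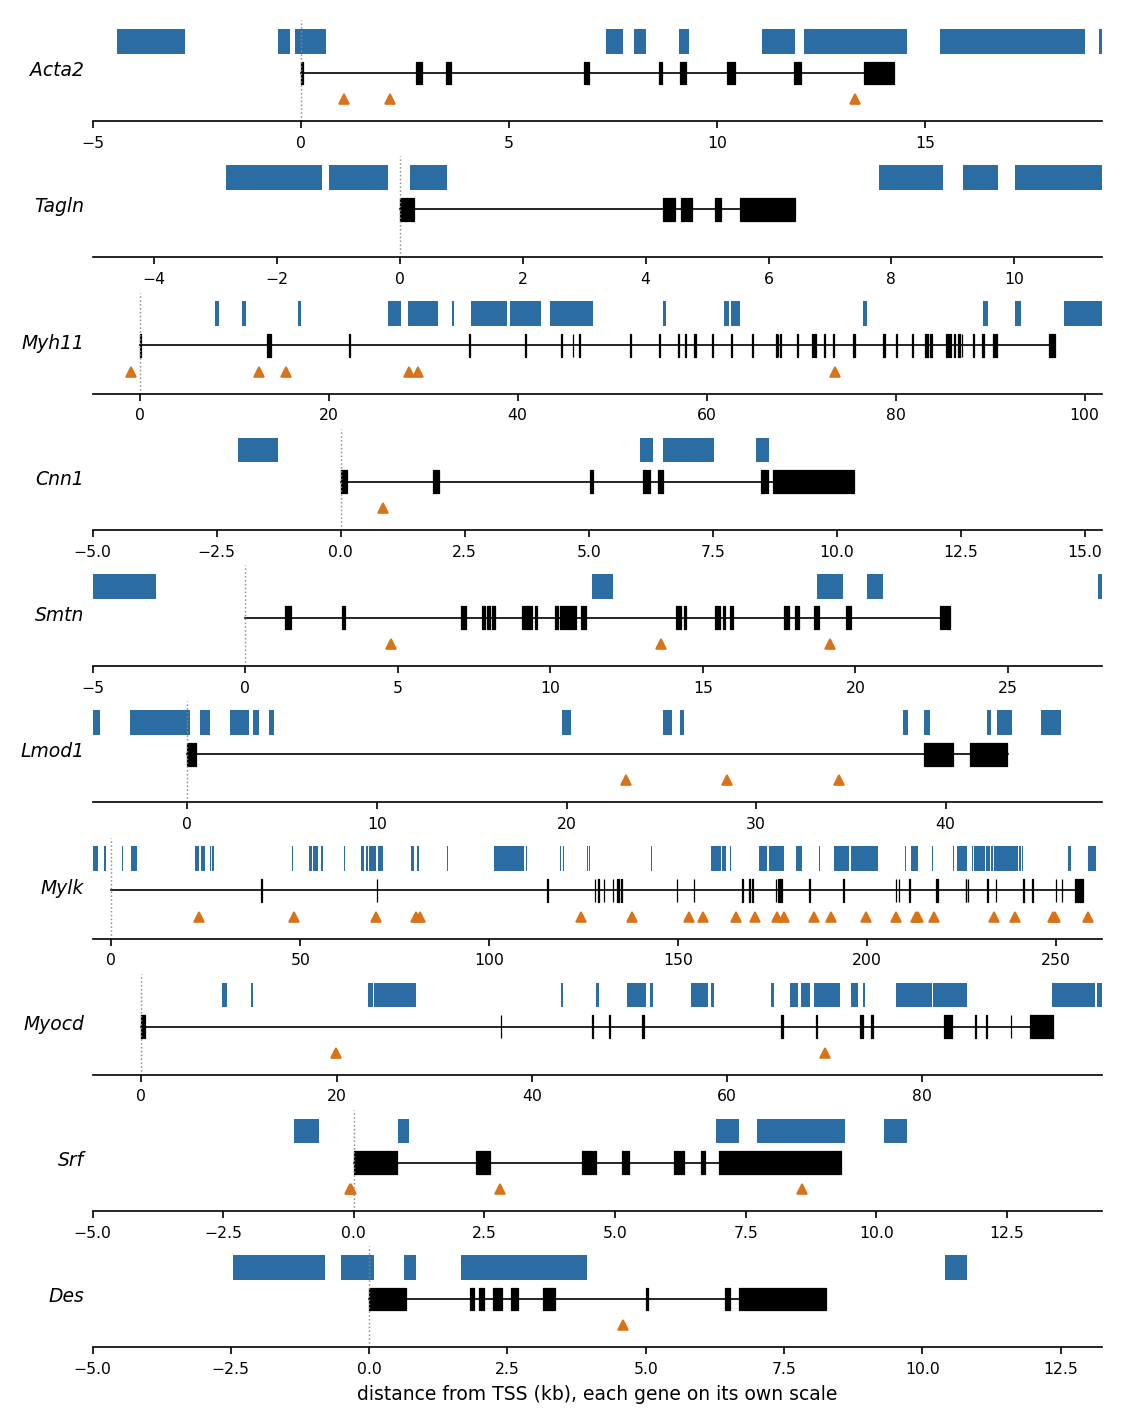
BRG1 regions along the 10 genes and 5 kb on each side, each gene drawn 5′ to 3′ from its transcription start site (TSS, dotted line) on its own scale. Blue, regions of the Tβ4-primed, injured hearts (1 list); black, exons of the longest protein-coding transcript; orange triangles, CArG boxes with no mismatch. Boxes of Tagln are not drawn.

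**Figure D2:**
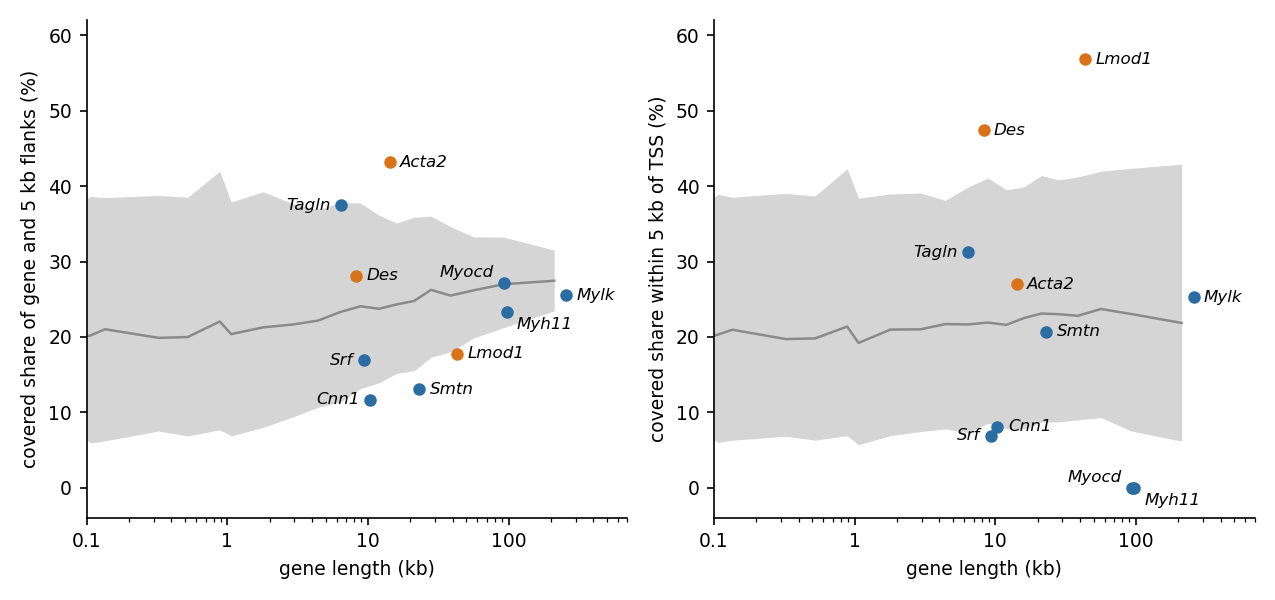
Share of bases covered by regions for the 10 members against gene length. Orange, members with a region over the TSS; blue, the others. Grey line and band, median and quartiles of all 37273 genes in 20 groups of rising length.

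At the transcription start site (TSS) the members fell into 3 kinds. A region lay over the TSS of 3 of 10 members, Acta2, Lmod1 and Des, where 24.7% of all genes had one. With only regions of at least 1000 bp it was 1 of 10 (Lmod1), against 18.1% of all genes. A region lay within 5 kb of the TSS, but not over it, in Tagln, Srf, Cnn1, Mylk and Smtn; for Mylk this holds at the start of a non-coding transcript and not at that of its long coding one. That makes 8 of 10 members with a region within 5 kb, against 89.9% of all genes, and leaves Myh11 and Myocd with none. The median covered share within 5 kb of the TSS was 22.9% in the members and 21.5% in all genes, so these shares too were near the background.

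The genes of the thin and thick filament themselves differed, Acta2 with a covered start and Myh11 with no region nearby. The 2 regulators of the set, Srf and Myocd, had low or no coverage around the gene's TSS, at 6.90% and 0% of the 5 kb on each side. The median of all genes was 21.5%. Low coverage did not set the regulators apart, since Cnn1 (8.10%) and Myh11 (0%) had similar values. Of all genes, 10.1% had a TSS more than 5 kb from any region.

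The promoters of Acta2 and Srf are shown because they held 2 boxes each close to the TSS, CArG-like in Acta2 and CArG in Srf, and differed in where the regions lay. The box searched for was CC, then 6 bases that are each A or T, then GG (a pattern that is its own reverse complement). A CArG-like box has exactly 1 G or C among the 6. The stretches run from 250 bp before the TSS to 20 bp after it in mm9, on the strand of the gene, with boxes of both kinds in capitals.
Acta2 (chr19:34329806-34330076, minus strand): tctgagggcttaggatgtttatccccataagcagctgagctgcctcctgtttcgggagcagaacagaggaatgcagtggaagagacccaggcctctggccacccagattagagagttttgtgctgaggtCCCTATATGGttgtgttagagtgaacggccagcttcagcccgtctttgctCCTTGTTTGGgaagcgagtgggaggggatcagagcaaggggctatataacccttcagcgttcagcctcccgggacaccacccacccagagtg
Srf (chr17:46693091-46693361, minus strand): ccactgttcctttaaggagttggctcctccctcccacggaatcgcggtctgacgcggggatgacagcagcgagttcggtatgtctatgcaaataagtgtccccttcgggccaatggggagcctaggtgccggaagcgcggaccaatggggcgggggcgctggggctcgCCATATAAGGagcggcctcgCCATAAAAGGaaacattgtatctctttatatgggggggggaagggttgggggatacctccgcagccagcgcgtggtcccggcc

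Acta2 encodes the smooth muscle alpha-actin of the thin filament. A region of 750 bp ran from -133 to 616 bp of its TSS and took in the first exon and the start of intron 1. Both CArG-like boxes of the promoter, at -121 and -71 bp, lay inside this region. The CArG boxes with no mismatch in intron 1, at 1039 and 2134 bp, lay outside any region. Acta2 had the highest covered share of the members, 43.2% of the window from 10 regions, which put it at percentile 85.5 of the 200 genes nearest in length, and its density of 0.412 regions per kb at percentile 93. Much of this lay at the far end: a region of 2490 bp over the last exon held the third CArG box (13.3 kb), and one of 3480 bp in the downstream flank overlapped the neighbouring gene Stambpl1. The 100 kb around the Acta2 TSS were also well covered, at 37.3% (percentile 90.7 of all genes), so the surroundings of Acta2 were rich in regions as well.

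Tagln encodes transgelin (SM22), an actin-binding protein that is among the first markers of smooth muscle. Its TSS sat in a gap of 360 bp between regions, one from -1148 to -189 bp and one from 172 to 771 bp. CArG boxes of Tagln were not analysed here. Regions covered 37.5% of the window (percentile 76.5 among genes of like length) but only 9.33% of the gene body. The rest lay in the flanks, where 1 upstream region overlapped Sidt2 and 3 downstream regions overlapped Pcsk7.

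Srf encodes the factor that binds CArG boxes, and its own promoter carried 2 of them, at -82 and -62 bp. No region reached them: the nearest ended 659 bp before the TSS, and another of 210 bp began 842 bp after it. The window was covered to 16.9%, at percentile 35 of genes of like length. Most of that was at the end of the gene, where a region of 1680 bp lay over the 3′ untranslated part and held a further CArG box at 8.57 kb. All 5 Srf regions also overlapped Gm16736, a gene annotated over the same stretch.

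**Figure D3:**
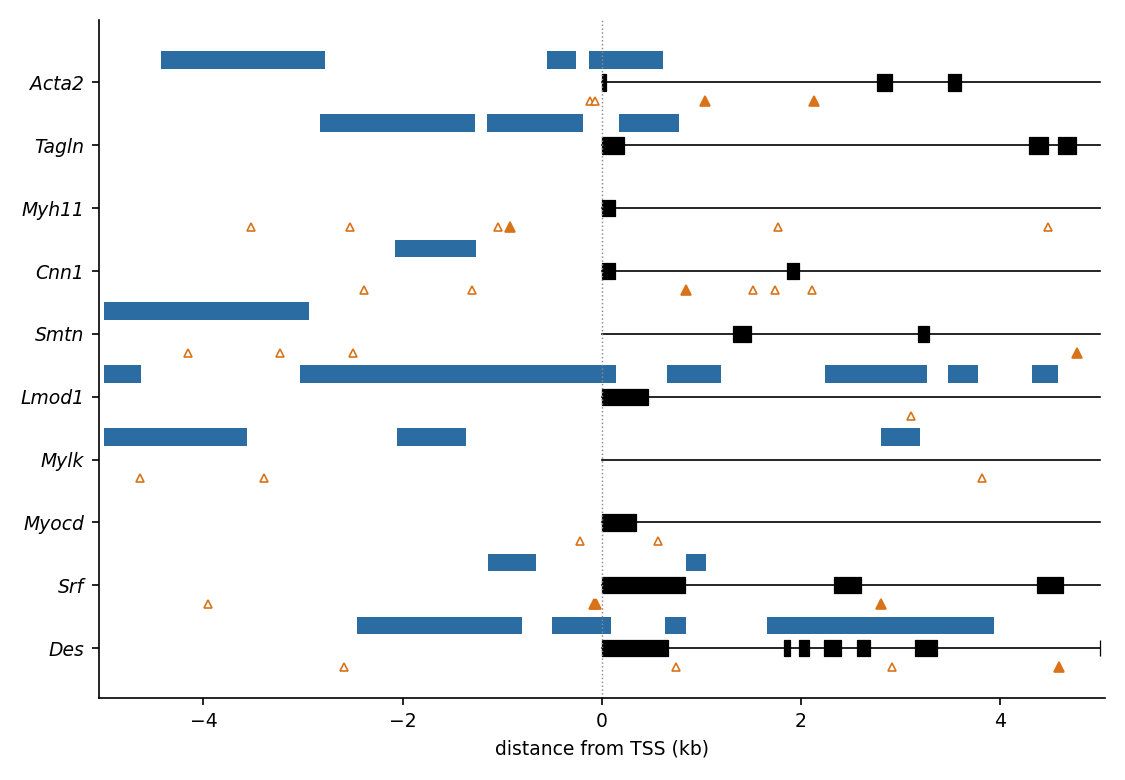
Regions (blue) within 5 kb of the TSS of the 10 members, with exons of the longest protein-coding transcript (black) and, below each gene, CArG boxes with no mismatch (filled triangles) and CArG-like boxes with 1 G or C (open triangles). Boxes of Tagln are not drawn.

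Promoters with more than 1 CArG box were rare. From 250 bp before the TSS to 50 bp after it, 1.52% of all genes held at least 1 CArG box and 8 genes, 0.0215%, held 2. Srf and Actg2 were among them. Over the 565 genes with a CArG box in the promoter, 22.7% had a region over the TSS, and over the 36708 genes without one 24.7% did.

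Within 5 kb of the TSS the 9 members searched held 9 CArG boxes, in Acta2, Myh11, Cnn1, Smtn, Srf and Des, and 0 of the 9 lay inside a region, where 26.1% of such boxes did over all genes. With 100 bp allowed the count was again 0 of 9. Several of these stretches were little covered: 6.90% in Srf, which held 3 of the 9 boxes, 0% in Myh11 and 8.10% in Cnn1. Smtn had 20.7%, Acta2 27% and Des 47.4%. The share over all genes is not matched for such local coverage, so no avoidance of regions can be read from it. Of CArG-like boxes 9 of 25 lay inside regions (36%, against 25.4% over all genes), and of inverted boxes (GG, 6 bases A or T, CC) 1 of 3. These are small counts and no test was made. The boxes not shown above are given with 10 bases on each side, to show how the core varies among genes of the set; none of these 7 lay in a region.
Acta2 (chr19:34328768-34328797, minus strand): gtgtgttttaCCTAATTAGGaaatgctccc
Acta2 (chr19:34327673-34327702, minus strand): atttcaaacaCCATATTTGGaaatttctat
Myh11 (chr16:14292404-14292433, minus strand): gcctcgacttCCTTTTATGGcctgagtggt
Cnn1 (chr9:21904560-21904589, plus strand): agccgccgcgCCTTATAAGGcggccttggg
Smtn (chr11:3435824-3435853, minus strand): tggggcccggCCTTATATGGgaaagctgtg
Srf (chr17:46690292-46690321, minus strand): gcctccgtgcCCATATAAGGccggttcggg
Des (chr1:75361488-75361517, plus strand): ccatgaatgaCCTTTTAAGGtagctagaga

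Over the whole windows of these 9 members 11 of 48 CArG boxes (22.9%) lay inside regions, close to the 24.2% of bases that regions covered there and to the 25.5% of CArG boxes inside regions over all chromosomes. CArG-like boxes gave the same share, 50 of 218 (22.9%), against 24.5% over all chromosomes, and inverted boxes 11 of 32, against 24.1%. Mylk alone held 25 of the 48 boxes and 5 of the 11 inside regions.

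Myh11 encodes the smooth muscle myosin heavy chain, the motor of the thick filament and a marker of mature smooth muscle. No region lay within 5 kb of its TSS; the nearest were 6889 bp upstream and 7992 bp downstream, an uncovered stretch of 14880 bp (percentile 84.8 over all genes). The promoter-proximal CArG box at -922 bp lies in that stretch. Further in, the gene was far from empty. Between 26.3 and 48.0 kb a cluster of regions of 1350, 3210, 3840, 3270 and 4620 bp, with 1 of 300 bp between them, covered 92.7% of intron 4 and 74.9% of intron 5. The region of 3210 bp, in intron 3, held 2 CArG boxes 1 kb apart. They are printed with the pair from Mylk that also shared a single region.
Myh11 (chr16:14262970-14262999, minus strand): cttagtttccCCATATAAGGtagagatgtg
Myh11 (chr16:14261979-14262008, minus strand): tttcctttctCCTTTTATGGgtagcctgca
Mylk (chr16:34978902-34978931, plus strand): ctatgaaaatCCTTTAAAGGacaaaggaac
Mylk (chr16:34984518-34984547, plus strand): gattccaagtCCTAATTAGGaaaggaggca

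Over the whole window Myh11 was covered to 23.3% by 16 regions, and its density of 0.150 regions per kb, the lowest of the members, stood at percentile 9 of genes of like length. The longest of its regions, 5460 bp, lay past the 3′ end and overlapped Nde1.

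Myocd encodes myocardin. Its TSS, too, lay in an uncovered stretch, of 20070 bp (percentile 92.2 over all genes), with the nearest region 8242 bp downstream, in intron 1. The 100 kb around the TSS were covered to 15.0%, at percentile 10.1. Coverage was uneven along the gene: intron 1 was covered to 15.2% and intron 2 to 2.89%, introns 6, 7, 9 and 10 to 57.1%, 69.7%, 64.7% and 66.5%, and introns 11, 12 and 13 to 0%. A region of 4410 bp lay over the 3′ end. In all 20 regions covered 27.1% of the window, at percentile 53 of genes of like length. Of 7 annotated transcripts, 2 begin further inside the gene at a region: Myocd-002 starts 51430 bp after the gene's TSS inside a region of 2010 bp, and Myocd-005 starts at the edge base of one of 300 bp. The single CArG-like box of the promoter, at -223 bp, was 8456 bp from any region.

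Mylk encodes myosin light chain kinase and is the longest member, at 257225 bp. It held 54 of the 139 regions, but its covered share (25.5%, percentile 36) and density (0.202 per kb, percentile 43.5) were unremarkable for its length. The regions came in clusters. One region of 7650 bp, the longest of all 10 windows, lay in an intron from 101.2 to 108.8 kb, and the stretch from 228.3 to 239.9 kb was nearly filled by regions of 2850, 990, 450 and 6390 bp; intron 27 was covered to 91.8%. The TSS used for Mylk is the start of Mylk-002, annotated as a retained intron. The coding transcript Mylk-001 starts 39711 bp further in, with 0% covered within 5 kb. No annotated start of Mylk had a region over it. The nearest region was 1367 bp from the start of Mylk-002, 8123 bp from that of Mylk-001, 3652 bp from that of Mylk-201 and 1898 bp from that of Mylk-202.

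Lmod1 encodes leiomodin 1, which nucleates actin filaments in smooth muscle. A region of 3180 bp ran from -3034 to 145 bp and covered the whole promoter, and 4 shorter regions followed within 5 kb. With 56.9% the Lmod1 TSS had the highest coverage of the members (percentile 81.5 of genes of like length). Across the gene the order turned around: the window was covered to 17.8%, at percentile 19.5, since the long intron 1 (38399 bp) was covered to only 9.30%. All 3 CArG boxes of Lmod1 were in this intron and outside regions.

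Des encodes desmin, the muscle intermediate filament protein, which cardiomyocytes also make. A region of 600 bp ran from -504 to 95 bp, and one of 2280 bp from 1656 to 3935 bp covered introns 2, 3, 4 and 5 completely. The TSS neighbourhood was covered to 47.4% (percentile 82.5) and the window to 28.1% (percentile 59). Of its 6 CArG-like boxes those at 745 and 2909 bp lay inside regions and the other 4 outside, as did the CArG box at 4594 bp.

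Cnn1 encodes calponin 1, an actin-binding inhibitor of the myosin ATPase. With the flanks it had the lowest covered share of the members, 11.6% (percentile 23), from 4 regions of at most 1020 bp. Over the gene body alone Cnn1 was covered to 15.1%, above Smtn (9.1%), Tagln (9.33%) and Lmod1 (10.95%). The region nearest to the TSS of Cnn1 ended 1266 bp upstream, and intron 1, with the CArG box at 845 bp, held no region. Smtn encodes smoothelin, a cytoskeletal protein of contractile smooth muscle, and was covered to 13.1% (percentile 20) by 5 regions. The longest, 3840 bp, lay upstream and ended 2935 bp before the TSS, while an uncovered stretch of 14310 bp took in that TSS and the starts of all transcripts that begin within 5 kb of it.

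**Figure D4:**
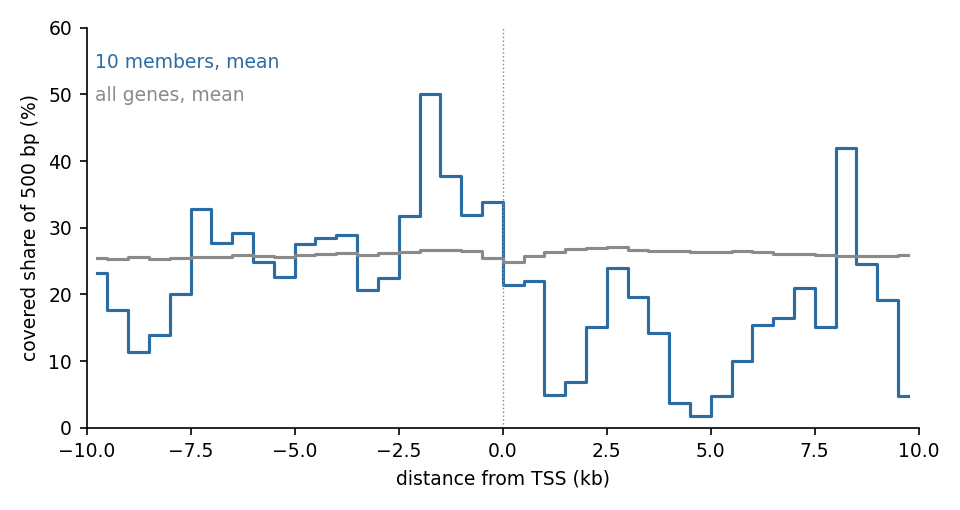
Mean covered share in steps of 500 bp around the TSS, over the 10 members (blue) and over all 37273 genes (grey). With 10 genes, 1 gene moves the blue line by up to 10 points.

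Within 5 kb of the TSS the members had, on average, more coverage before the start than after it. Single members differed widely, with the 5 kb upstream covered from 0% (Myh11 and Myocd) to 68.2% (Lmod1). From 2000 to 1500 bp upstream a mean of 50% was covered, the highest step, with regions in 5 of 10 members (36.7% of all genes); from 4500 to 5000 bp downstream it was 1.72%, the lowest, with a region in 1 of 10 (36.1% of all genes). The mean over all genes was nearly level over this range, 26.7% and 26.3% in these steps and 25.5% just before the TSS. The list as a whole had no rise at start sites.

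By annotation, regions covered 31.3% of the upstream flanks, 20.1% of coding exons, 20.3% of untranslated or non-coding exon bases, 22.7% of introns and 40.3% of the downstream flanks, summed over the members. Such shares are not given here over all genes, so no preference for a part of the gene can be read from them. The spread was wide, with downstream flanks covered from 0% (Cnn1) to 93.3% (Myocd), and Mylk alone gave 246595 of the 516678 intron bases. Of the 139 regions 84 lay wholly in introns, 25 touched a coding exon, 23 lay only in flanks and 13 overlapped another gene. Introns made up 516678 of the 662488 bases of the windows, and these counts too have no value over all genes beside them. Assigning each region to its closest gene, which also reaches outside the windows, gave Mylk 55 regions, Myocd 19, Myh11 15, Lmod1 13, Smtn 12, Acta2 11, Des 9, Cnn1 4, Srf 3 and Tagln 2, with a median of 11.5. The median was 6 over all genes and 10 over the genes nearest in length. For Smtn these included a region 38905 bp away. Base composition differed little: in Acta2 the covered bases were 43.6% G or C and the uncovered 43.0%, and the widest gap was in Des, at 52.2% and 49.4%.

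**Figure D5:**
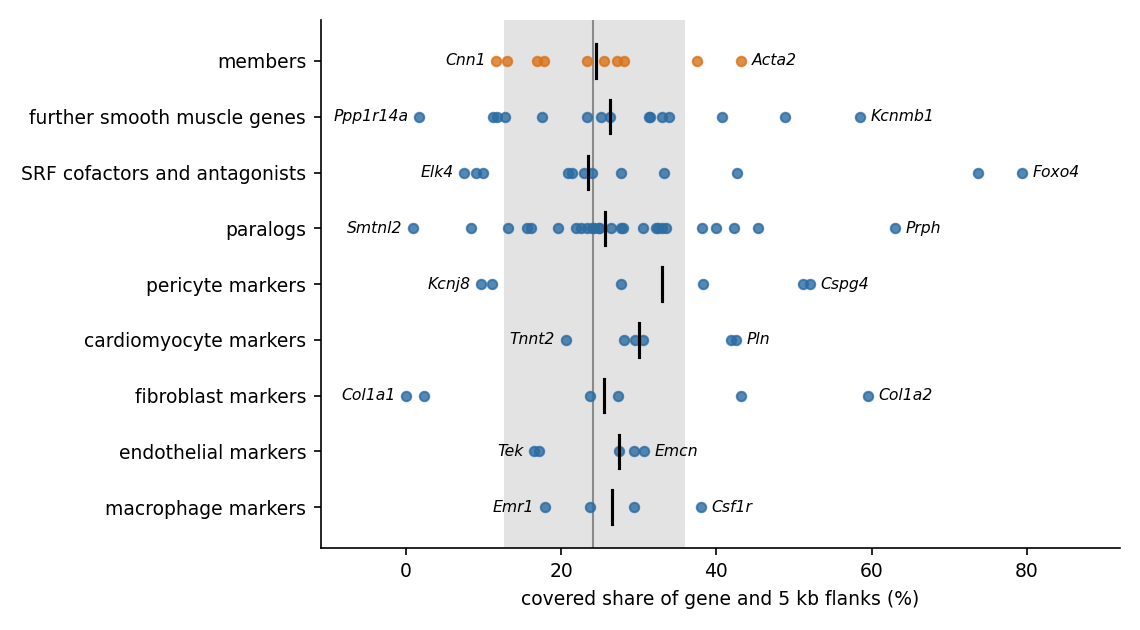
Covered share of gene and 5 kb flanks for the members and 8 further gene lists, 1 point per gene. Black bars, medians; grey line and band, median and quartiles of all genes; the lowest and highest gene of each list are named.

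Relatives of the members made outside smooth muscle, or more widely, were set beside them. Of 26 such genes 15 had a higher covered share than the member they are related to, and their median was 25.7%. Among actins the cardiac Actc1 (45.4%) and skeletal Acta1 (38.1%) were near Acta2, and the cytoplasmic Actb (16.2%) and Actg1 (8.40%) below it. Of the 26, 4 had a region over the TSS, Actc1, Myh9, Myh14 and Prph, where 24.7% of all genes had one. Within 5 kb of the TSS the non-muscle myosin genes Myh9, Myh10 and Myh14 were covered to 50.8%, 20.7% and 22.8%, and Myh11 to 0%. Families differed in this: over all of them 13 of the 26 relatives exceeded their member there. In the families of Smtn, Lmod1 and Mylk 0 did. Tagln exceeded Tagln2 (24.8%) and Tagln3 (33.5%), but only with the flanks: over the gene body alone Tagln (9.33%) lay below both (24.95% and 36.9%). Cnn1 lay below Cnn2 (24.9%) and Cnn3 (26.4%).

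The other families were mixed. Smtn was level with Smtnl1 (13.1%) and above Smtnl2 (0.830%, the lowest relative), and Lmod1 lay between the striated muscle genes Lmod2 (15.6%) and Lmod3 (22.6%). Mylk stood above the cardiac Mylk3 (21.9%) and below Mylk2 (27.9%) and Mylk4 (42.3%). The myocardin-related factors Mkl1 (23.9%) and Mkl2 (27.7%) were close to Myocd, and Srf was below its MADS-box relatives Mef2a (30.5%), Mef2c (32.5%) and Mef2d (32.3%). Des was above Vim (23.4%) and below Gfap (39.95%) and Prph (63.1%, the highest relative).

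A further 15 smooth muscle genes had a median covered share of 26.3%, with 9 above the median of all genes. A region lay over the TSS of 2 of the 15 (Ppp1r12a and Itga8), against 24.7% of all genes. They ran from Ppp1r14a, an inhibitor of myosin phosphatase, at 1.71% to Kcnmb1, a potassium channel subunit, at 58.6%. Actg2, the enteric smooth muscle actin with 2 CArG boxes in its promoter, had no region within 5 kb of its TSS, nor had Csrp1, so 13 of the 15 had one, near the 89.9% of all genes. Of 12 cofactors and antagonists of SRF, 3 had a region over the TSS, Foxo4, Gata6 and Hey2, near the 24.7% of all genes. Within 5 kb of the TSS 9 of the 12 had a region, and the median covered share there was 13.6% (21.5% over all genes). Over the whole window their median was 23.4%, from Elk4, an ETS partner of SRF, at 7.46% to Foxo4, a repressor of myocardin, at 79.4%. Hey2, a Notch target, followed at 73.7%, at percentile 100 of genes of like length.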

How the data were processed

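Per the labels and the study's methods, the authors mapped reads with Bowtie 1.0.0 to mm9 and called regions with MACS2 2.0.10. The deposited list gives positions in bp for BRG1 over input in Tβ4-primed, injured hearts (2 BRG1 and 2 input libraries); how duplicates were combined is not stated. For the call, bdgcomp is given in the paper's methods, whereas the list is named like an output of bdgdiff, so which was used could not be settled. Depth per library is unknown. Groups were taken from the sample labels.

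Genes came from GENCODE on mm9 (autosomes, X and Y). Covered bases and regions (at least 1 bp of overlap) were counted over the gene body with 5 kb flanks and within 5 kb of the TSS; percentiles are among the 200 genes nearest in length. CArG boxes were read from the mm9 genome on both strands, for 9 members; those of Tagln were not used here. Closest genes used bedtools 2.31.1; other steps used Python 3.11.15, numpy 2.4.6, pysam 0.24.0, scipy 1.17.1 and matplotlib 3.10.9. Counting was tested on simulated data. No test between groups was run, because only 1 list, not split by library, was used. Members and lists were chosen with earlier results of these data known. Named beside the members were the highest and lowest gene of each list and the relatives of each member, by rule, and, chosen after the values were seen, genes with a region over the TSS, Actg2, Csrp1 and Hey2. PBS-primed and input data were not used here.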

Additional observations from a re-analysis of the deposited data

How the results depend on the processing

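Values of the set that changed by over 1.5 times under an alternative come first. With only regions of at least 1000 bp, 1 member had a region over the TSS (all genes 18.1%), the median covered share within 5 kb of the TSS was 15.0% (all genes 12.9%) and the median density 0.062 per kb. Joining regions within 500 bp gave 0.149 per kb. Both settings reduce the number of regions in the list as a whole, and densities over all genes under them are not given here. Within 1 kb of the TSS the members' median covered share was 12.5% (all genes 10.5%). Within 5 kb of the TSS of the members searched, 0% of CArG boxes (0 of 9) lay inside regions, 36% of CArG-like boxes (9 of 25) and 33.3% of inverted motifs (1 of 3). Of 60 single-member shares 52 stayed within 1.5 times. The others were Cnn1 (5.01%), Smtn (6.24%), Srf (8.69%), Lmod1 (9.91%) and Tagln (24.5%) with regions of at least 1000 bp, Lmod1 (10.95%) and Tagln (9.33%) without flanks, and Des (18.3%) with 10 kb flanks. The order of the members changed as well. With 10 kb flanks Tagln (42.8%) stood above Acta2 (40.97%), and without flanks Smtn (9.1%) was the lowest. An alternative on region scores was not run, since the list holds none. No paired analysis was possible because the list is not split by library.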

Other observations

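Markers of other cell types of the heart were described by the same measure. Their median covered shares were 33.0% for 6 pericyte genes (lowest Kcnj8 9.69%, highest Cspg4 52.0%), 30.02% for 6 cardiomyocyte genes (Tnnt2 20.6%, Pln 42.6%) and 25.5% for 6 fibroblast genes (Col1a1 0%, Col1a2 59.5%). For 5 endothelial genes the median was 27.4% (Tek 16.5%, Emcn 30.7%) and for 4 macrophage genes 26.5% (Emr1 17.9%, Csf1r 38.0%). Within 5 kb of the TSS the medians were 18.0% (pericyte), 13.7% (cardiomyocyte), 7.35% (fibroblast), 13.3% (endothelial) and 39.7% (macrophage). Over all genes the window median was 24.0%, and the median within 5 kb of the TSS was 21.5%. A region lay over the TSS of 1 cardiomyocyte gene (Ryr2) and 1 macrophage gene (Itgam), and of 0 pericyte, fibroblast or endothelial genes. Over all genes the share was 24.7%, so in lists of 4 to 6 genes these counts say little. Regions bound by BRG1 do not give expression, so the labelled tissue could not be checked against these markers.

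GC content of the promoter was also set beside coverage. Over all genes a region lay over the TSS of 27.1% in the lowest of 5 equal groups by GC and of 23.6% in the highest. None of the members was in the lowest 2 groups. Srf and Des were in the highest, Smtn in the middle one and the other 7 between them.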
